A study of Homo sapiens with 9 samples.

Results

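The 10 genes described here encode secreted proteins of innate defence and of the acute-phase response: SAA1, SAA2, LCN2, C3, CFB, PI3, SLPI, PLA2G2A, RNASE7 and IL32. They were found by their gene identifiers, matched without version number to GENCODE symbols, in 2 deposited count tables of 60609 genes each. They were chosen by their CPM (counts relative to the library total, scaled by the trimmed mean of M values) and fold changes in these same libraries. Their values, fold changes and the overlap of libraries are therefore given as a description, with no test. All 10 passed the low-count filter that left 26412 genes for testing, and the smallest count of any of them in any library was 24.

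The libraries came from MCF-10A, a line of human mammary epithelium that does not form tumours, with 3 libraries for each of 3 genotypes of PIK3CA, the gene of the p110-alpha catalytic subunit of PI 3-kinase. H1047R cells carried a knock-in of the H1047R change, in the kinase domain, and E545K cells a knock-in of the E545K change, in the helical domain. WT cells were the parental line. The knock-in lines were kept without epidermal growth factor (EGF, 0 ng/ml) and the WT line with 20 ng/ml, and all received horse serum (5%), cholera toxin (100 ng/ml), hydrocortisone (0.5 µg/ml) and insulin (10 µg/ml). During the final 24 h the 3 lines shared one assay medium, whose EGF was 0.2 ng/ml and whose serum, at 1%, was stripped with charcoal, so genotype and earlier EGF cannot be told apart in a comparison with WT. The H1047R counts stood in a table of their own, and this table and the H1047R genotype cannot be told apart. The labels do not say whether the 3 libraries of a genotype came from separate cultures, or whether a knock-in line is 1 clone, so the p-values below rest on library-to-library spread that may be technical. In bulk libraries such as these, fewer cells that make a transcript and less of it per cell cannot be told apart.

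Total counts were 377093507 to 605972919 in H1047R libraries, 95533991 to 134245702 in E545K libraries and 95091894 to 136132315 in WT libraries, with each read of a pair counted by itself. The coefficient of biological variation fitted by edgeR was 0.212 among H1047R libraries, 0.0289 among E545K libraries and 0.0328 among WT libraries. Protein-coding genes held 77.8% of counts in H1047R, 85.5% in E545K and 86.0% in WT. All 13 breast epithelial markers had at least 1 CPM in every library. PIK3CA itself averaged 42.7 ± 1.13 CPM in H1047R, 38.1 ± 0.909 CPM in E545K and 46.1 ± 2.03 CPM in WT (SD, n = 3 each), which does not bear on a base change.

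Acute-phase proteins are secreted in bulk by the liver during infection or injury, but epithelia make several of them as well. In epithelial cells their genes are induced by interleukin-1, interleukin-17 and tumour necrosis factor through NF-kappaB and its cofactor IkappaB-zeta, and by the interleukin-6 family through STAT3 and the C/EBP factors. The serum amyloid A proteins SAA1 and SAA2 bind lipids, lipocalin-2 (LCN2) takes iron-carrying siderophores from bacteria, C3 and factor B (CFB) form the alternative pathway of complement, elafin (PI3) and SLPI inhibit neutrophil serine proteases, PLA2G2A hydrolyses bacterial phospholipids, RNase 7 kills bacteria on skin and mucosa, and IL32 is a cytokine.

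SAA1 and SAA2 are neighbours on opposite strands of chromosome 11 and are near copies, which limits how well reads can be assigned to either. Over 366 coding bases of hg38 (GENCODE 44 canonical transcripts) they differed at 11, an identity of 97.0%, and 37 of 217 windows of 150 bases (17.1%), the length of a read, were the same in both. The last coding exon, exon 4, held 9 of the 11 differences in its 136 coding bases, and it is shown because most of the differences that tell the pair apart lie in it. Exon 4 of SAA1 lies at chr11:18269717-18269852 on the plus strand and that of SAA2 at chr11:18245380-18245515 on the minus strand. Capitals mark the bases that differ between them, and both are written 5′ to 3′ of the gene.
SAA1 exon 4: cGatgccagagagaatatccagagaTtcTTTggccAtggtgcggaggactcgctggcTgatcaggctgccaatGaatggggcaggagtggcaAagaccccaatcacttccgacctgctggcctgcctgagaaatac
SAA2 exon 4: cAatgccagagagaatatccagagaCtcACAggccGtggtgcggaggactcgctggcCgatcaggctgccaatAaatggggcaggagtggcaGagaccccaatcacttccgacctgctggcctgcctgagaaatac

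RefSeq promoter windows (build GRCh38.p14), which run over 300 bases, 250 before and 50 after the start site, were at hand for 5 of the 10 genes: LCN2, CFB, PLA2G2A, RNASE7 and IL32. They are shown because LCN2, CFB and PLA2G2A were 10.3-fold, 10.1-fold and 34.7-fold higher in H1047R than in E545K while RNASE7 and IL32 differed by less than 2-fold, and because NF-kappaB, C/EBP and STAT factors are the known inducers of such genes. Capitals mark matches on either strand to the standard kappaB consensus, to the C/EBP form TTNNGNAA and to the STAT form TTCNNNGAA. The windows are LCN2 at chr9:128149203-128149502 (plus strand), CFB at chr6:31945845-31946144 (plus), PLA2G2A at chr1:19979610-19979909 (minus), RNASE7 at chr14:21042112-21042411 (plus) and IL32 at chr16:3065153-3065452 (plus).
LCN2: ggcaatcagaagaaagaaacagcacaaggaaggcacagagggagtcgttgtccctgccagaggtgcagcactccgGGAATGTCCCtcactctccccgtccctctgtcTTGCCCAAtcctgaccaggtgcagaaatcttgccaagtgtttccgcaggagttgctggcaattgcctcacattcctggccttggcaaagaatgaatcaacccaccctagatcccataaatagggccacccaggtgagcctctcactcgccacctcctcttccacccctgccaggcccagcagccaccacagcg
CFB: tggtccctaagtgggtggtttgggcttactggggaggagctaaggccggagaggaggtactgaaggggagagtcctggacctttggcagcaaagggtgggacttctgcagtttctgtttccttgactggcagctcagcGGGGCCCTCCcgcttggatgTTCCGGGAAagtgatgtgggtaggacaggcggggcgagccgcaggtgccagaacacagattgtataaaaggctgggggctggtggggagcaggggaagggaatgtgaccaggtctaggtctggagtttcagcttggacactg
PLA2G2A: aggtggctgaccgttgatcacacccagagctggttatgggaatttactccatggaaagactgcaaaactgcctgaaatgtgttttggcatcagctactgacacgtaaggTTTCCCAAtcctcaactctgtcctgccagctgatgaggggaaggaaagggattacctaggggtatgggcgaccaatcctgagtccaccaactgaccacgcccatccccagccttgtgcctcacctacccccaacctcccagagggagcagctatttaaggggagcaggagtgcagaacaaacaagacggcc
RNASE7: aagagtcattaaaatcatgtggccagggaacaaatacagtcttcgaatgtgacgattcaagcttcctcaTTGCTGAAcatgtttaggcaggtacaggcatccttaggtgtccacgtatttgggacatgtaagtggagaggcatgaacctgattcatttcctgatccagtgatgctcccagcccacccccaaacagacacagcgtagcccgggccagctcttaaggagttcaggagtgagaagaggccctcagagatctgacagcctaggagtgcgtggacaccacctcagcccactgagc
IL32: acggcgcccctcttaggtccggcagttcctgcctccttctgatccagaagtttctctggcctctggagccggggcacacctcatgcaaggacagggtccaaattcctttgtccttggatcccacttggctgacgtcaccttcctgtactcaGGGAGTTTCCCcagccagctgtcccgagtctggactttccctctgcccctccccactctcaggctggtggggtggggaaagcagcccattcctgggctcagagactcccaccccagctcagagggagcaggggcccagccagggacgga

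Positions are counted from the start site to the first base of the match. The kappaB consensus matched at base -175 of LCN2, at -112 of CFB, and at -99 and, overlapping it, -98 of IL32. It is held by 10.8% of 27305 promoters of that table, taken as the first window listed for each gene. For the genes shown, every window was searched. The C/EBP form matched at -143 of LCN2, -141 of PLA2G2A and -181 of RNASE7, and 37.2% of those 27305 promoters hold it. The STAT form matched at -92 of CFB, and 7.88% of those promoters hold it. A second kappaB search, for a fixed decamer with at most 1 mismatch, was settled after these sequences had been read. It matched at -176 of LCN2, -99 of IL32 and -213 of PLA2G2A and in 2.45% of the 27305 promoters. Of the other windows in the table, IL32 had a second with a C/EBP match at 35 bases after its start, and PLA2G2A had 2 more, each with a C/EBP match, of which 1 overlaps the window shown. A match is a string of letters, and no binding was measured.

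Most of the 10 genes were far higher in H1047R cells than in either other genotype. In H1047R against E545K cells, 8 of the 10 were at least 2-fold higher and 0 at least 2-fold lower. Among all genes tested 9.97% were at least 2-fold higher and 8.68% at least 2-fold lower in that comparison. In H1047R against WT cells the same counts were 8 and 0, where 12.5% and 8.65% of all genes were. The same 8 genes made up both counts, namely all but RNASE7 and IL32, and both comparisons share the H1047R libraries. In E545K against WT cells 0 were at least 2-fold higher and 3 at least 2-fold lower (LCN2, C3 and PLA2G2A), beside 7.22% and 4.33% of all genes. Since these contrasts chose the genes, nothing is read from these shares.

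The median log2 fold change of the 10 genes was 3.31 in H1047R against E545K, 2.98 in H1047R against WT and -0.41 in E545K against WT, where the medians of all genes tested were 0.02, 0.02 and 0.00. The libraries of the 2 groups compared did not overlap for any of the 10 genes in any of the 3 comparisons. For all genes tested the share without overlap was 58.8% in H1047R against E545K, 60.1% in H1047R against WT and 54.2% in E545K against WT. H1047R held the highest mean for 9 genes and WT for IL32. E545K held the lowest mean for 5 genes (SAA1, LCN2, C3, PI3 and PLA2G2A), WT for 4 (SAA2, CFB, SLPI and RNASE7) and H1047R for IL32.

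**Figure D1:**
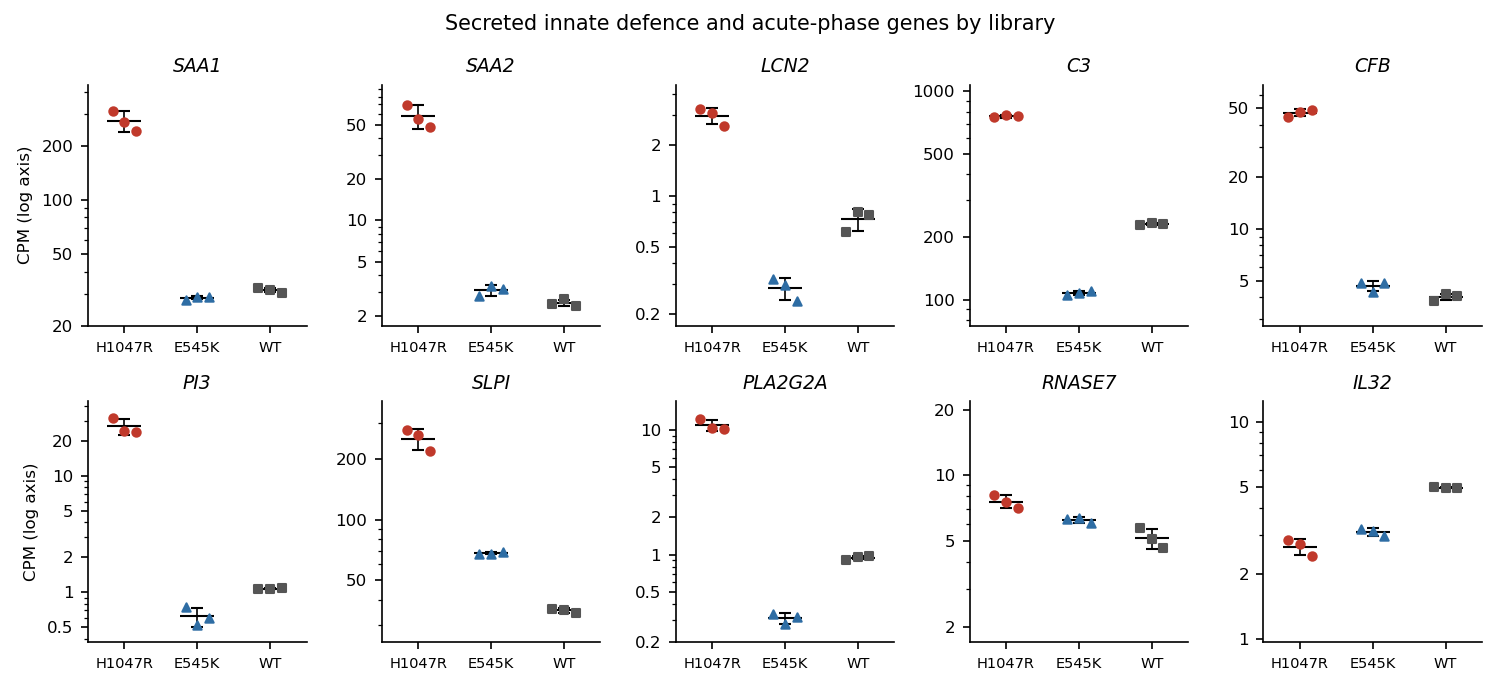
Level of each of the 10 genes in every library, in CPM on a log axis that is scaled for each gene, for H1047R, E545K and WT cells from left to right. Points are libraries and bars are the mean and SD of 3. H1047R libraries stand above both other genotypes for every gene but IL32, which is highest in WT.

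Both serum amyloid A genes were far higher in H1047R than in E545K or WT cells. SAA1 (hg38, chr11:18266260-18269977, plus strand) had 314, 273 and 243 CPM in H1047R cells, 27.9, 28.9 and 29 CPM in E545K cells and 32.3, 31.7 and 30.5 CPM in WT cells. All 3 H1047R libraries were far above the rest, while E545K libraries lay just under WT libraries without overlap. Fitted log2 fold changes of SAA1 were 3.28 ± 0.08 (SE) in H1047R over E545K, 3.13 ± 0.08 in H1047R over WT and -0.14 ± 0.07 in E545K over WT, so it was 9.68-fold higher in H1047R than in E545K and 8.78-fold higher than in WT. SAA2 (chr11:18239223-18248643, minus strand) had 69.9, 55 and 47.8 CPM in H1047R cells, 2.8, 3.35 and 3.19 CPM in E545K cells and 2.48, 2.66 and 2.39 CPM in WT cells. Here E545K libraries were slightly above WT libraries, with a gap smaller than the SD among E545K libraries. The log2 fold change of SAA2 was 4.21 ± 0.13 in H1047R over E545K, 4.52 ± 0.13 in H1047R over WT and 0.30 ± 0.14 in E545K over WT.

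The pair did not scale together. The ratio of SAA1 counts to SAA2 counts was 4.84 ± 0.306 in H1047R, 9.22 ± 0.672 in E545K and 12.6 ± 0.605 in WT (SD, n = 3 each), so the share of SAA2 in the pair was highest in H1047R. Summed, which removes the question of which copy a read came from once it was counted, the pair had 334 ± 47.2 CPM in H1047R, 31.7 ± 0.879 CPM in E545K and 34.0 ± 0.986 CPM in WT. Of the exon bases counted for SAA2 14.3% are shared with another gene, mostly SAA2-SAA4, a readthrough of SAA2 into the next gene, and for SAA1 7.18% are shared. The gene annotated as this readthrough was counted at 40.0, 32.2 and 29 CPM in H1047R cells, 1.27, 1.92 and 1.95 CPM in E545K cells and 1.65, 1.6 and 1.33 CPM in WT cells, and SAA4, a constitutive serum amyloid of the liver whose exon bases are 75.6% shared, had 1.61, 1.7 and 1.35 CPM in H1047R cells, 0.203, 0.296 and 0.279 CPM in E545K cells and 0.104, 0.307 and 0.0742 CPM in WT cells. Both were higher in all H1047R libraries than in any other library. Reads in shared exons were counted for each gene, so the level of the readthrough gene is not independent of SAA2 or of SAA4. SAA4 shares exon bases with the readthrough gene and not with SAA2. Since SAA4 was so much lower, few reads counted for the readthrough gene fell in the bases shared with SAA4. Its counts are therefore not a measure of readthrough.

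Per length, LCN2 had the lowest level of the 8 genes that were at least 2-fold higher in H1047R. LCN2 (chr9:128149071-128153453, plus strand) had 3.24, 3.1 and 2.6 CPM in H1047R cells, 0.322, 0.296 and 0.239 CPM in E545K cells and 0.609, 0.803 and 0.774 CPM in WT cells. H1047R libraries were highest, WT libraries intermediate and E545K libraries lowest, and the 3 groups did not overlap. The log2 fold change was 3.37 ± 0.18 in H1047R over E545K, 2.04 ± 0.16 in H1047R over WT and -1.33 ± 0.19 in E545K over WT. The E545K values rest on 46, 32 and 24 counts.

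The complement pair split in E545K cells. C3, the central component on which all complement pathways converge (chr19:6677704-6730562, minus strand), had 750.2, 771 and 759 CPM in H1047R cells, 105, 108 and 110.1 CPM in E545K cells and 229.5, 235 and 231 CPM in WT cells. Its libraries within a genotype lay within a few percent of each other, and it followed the order H1047R, WT, E545K. Fitted log2 fold changes of C3 were 2.82 ± 0.04 in H1047R over E545K, 1.71 ± 0.04 in H1047R over WT and -1.10 ± 0.04 in E545K over WT. CFB, the protease zymogen that joins C3b in the alternative-pathway convertase (chr6:31945650-31952084, plus strand), had 44.7, 47.8 and 49.1 CPM in H1047R cells, 4.85, 4.31 and 4.82 CPM in E545K cells and 3.82, 4.15 and 4.07 CPM in WT cells. E545K and WT libraries of CFB were close to each other, with E545K slightly above. The log2 fold change of CFB was 3.34 ± 0.06 in H1047R over E545K, 3.56 ± 0.06 in H1047R over WT and 0.22 ± 0.07 in E545K over WT. Of the exon bases counted for CFB 45.5% are shared, nearly all with a gene of the same strand that has no symbol in the annotation used and whose levels were nearly those of CFB. C2, the neighbour upstream of CFB with the matching role in the classical pathway, had at most 0.331 CPM in any library.

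Both elastase inhibitors, neighbours on chromosome 20, were higher in H1047R but differed in E545K. PI3, elafin (chr20:45174902-45176544, plus strand), had 31.7, 24.5 and 24.2 CPM in H1047R cells, 0.743, 0.518 and 0.598 CPM in E545K cells and 1.07, 1.06 and 1.08 CPM in WT cells. It was the gene with the largest fold among the 10, 42.6-fold in H1047R over E545K and 25-fold in H1047R over WT. Fitted log2 fold changes of PI3 were 5.41 ± 0.13 in H1047R over E545K, 4.65 ± 0.13 in H1047R over WT and -0.77 ± 0.17 in E545K over WT. SLPI (chr20:45252239-45254564, minus strand) had 277, 262 and 218 CPM in H1047R cells, 67.4, 67.9 and 69.2 CPM in E545K cells and 36.2, 35.6 and 34.4 CPM in WT cells. Unlike PI3, SLPI was higher in E545K than in WT. The log2 fold change of SLPI was 1.89 ± 0.07 in H1047R over E545K, 2.83 ± 0.07 in H1047R over WT and 0.94 ± 0.07 in E545K over WT. WFDC5 and WFDC12, genes of the same cluster on chromosome 20, did not pass the low-count filter. WFDC2, also of that cluster, was tested at a low level. It averaged 0.0564 CPM in H1047R, 0.178 CPM in E545K and 0.0657 CPM in WT. Unlike PI3 and SLPI, it was lower in H1047R than in E545K (edgeR adjusted p = 0.0291).

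PLA2G2A, the secreted group IIA phospholipase A2 (chr1:19975431-19980416, minus strand), had 12.2, 10.3 and 10.2 CPM in H1047R cells, 0.336, 0.278 and 0.319 CPM in E545K cells and 0.914, 0.951 and 0.976 CPM in WT cells. All 3 groups were apart, with E545K lowest. Its log2 fold change was 5.12 ± 0.12 in H1047R over E545K, 3.52 ± 0.11 in H1047R over WT and -1.59 ± 0.15 in E545K over WT, and the E545K values rest on 30 to 48 counts.

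The other two genes did not share this pattern. RNASE7 (chr14:21042316-21044234, plus strand) had 8.11, 7.52 and 7.06 CPM in H1047R cells, 6.29, 6.36 and 6.03 CPM in E545K cells and 5.69, 5.1 and 4.61 CPM in WT cells. Its groups were in the order H1047R, E545K, WT, but the nearest libraries of neighbouring groups were under 1 CPM apart. Fitted log2 fold changes of RNASE7 were 0.28 ± 0.08 in H1047R over E545K, 0.55 ± 0.08 in H1047R over WT and 0.27 ± 0.09 in E545K over WT. IL32 (chr16:3065297-3082192, plus strand) had 2.84, 2.73 and 2.41 CPM in H1047R cells, 3.22, 3.13 and 2.97 CPM in E545K cells and 4.99, 4.96 and 4.96 CPM in WT cells. It was the one gene of the 10 that was lowest in H1047R, with E545K close above and WT clearly higher. The log2 fold change of IL32 was -0.23 ± 0.09 in H1047R over E545K, -0.90 ± 0.09 in H1047R over WT and -0.68 ± 0.09 in E545K over WT.

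**Figure D2:**
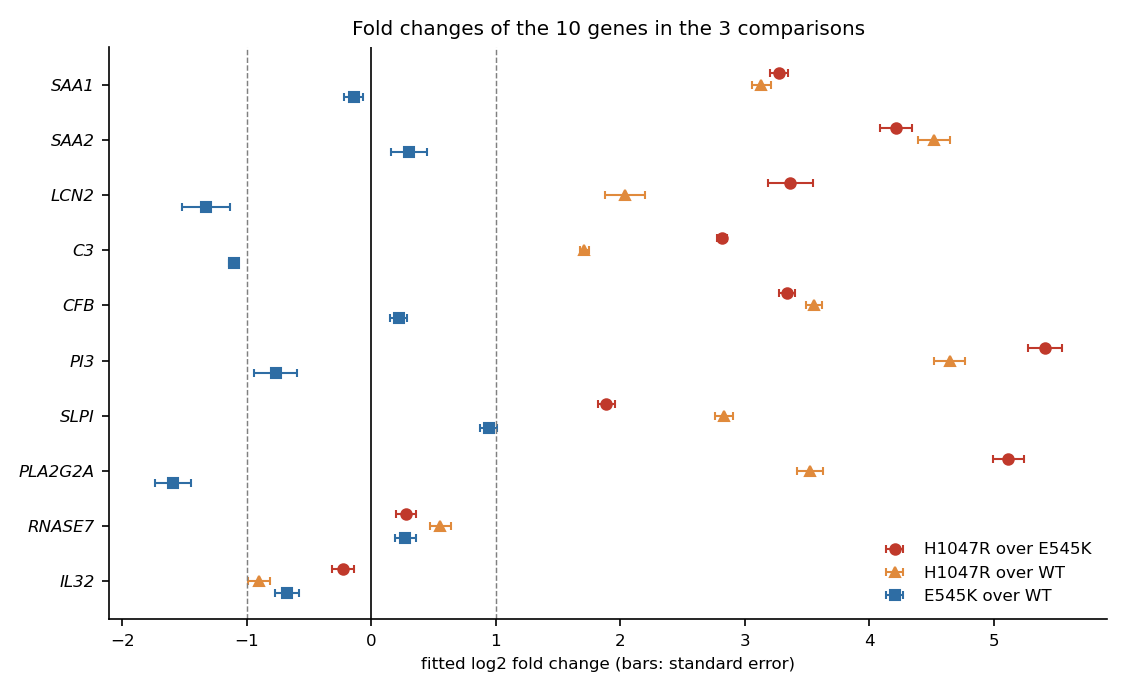
Fitted log2 fold change of each gene, with its standard error, in H1047R over E545K (circles), H1047R over WT (triangles) and E545K over WT (squares); dashed lines mark 2-fold. For 8 genes both H1047R comparisons lie beyond 2-fold, and the E545K over WT values run from -1.59 for PLA2G2A to 0.94 for SLPI.

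Per length, in RPKM (CPM divided by exon length in kilobases), SLPI and SAA1 had the highest levels in H1047R cells, 423 ± 51.5 and 389.8 ± 50.7 RPKM (SD, n = 3). C3 followed with 91.6 ± 1.27, PI3 with 48.7 ± 7.65 and SAA2 with 25.9 ± 5.06 RPKM. The other 5 genes had under 10 RPKM in H1047R, down to 0.829 ± 0.0699 RPKM for IL32. Exon length was that of all annotated exons, 710 bases for SAA1 and 2227 for SAA2, although the coding bases compared were 366 in both. Levels per length therefore depend on which transcripts are annotated. In E545K cells SLPI led with 114 ± 1.59 RPKM and in WT cells with 59.4 ± 1.5 RPKM, each followed by SAA1 (40.3 ± 0.865 RPKM in E545K and 44.4 ± 1.28 RPKM in WT) and C3 (13 ± 0.312 RPKM in E545K and 27.9 ± 0.342 RPKM in WT). PI3, next after C3 by level per length in H1047R, had 1.12 ± 0.207 RPKM in E545K and 1.94 ± 0.0224 RPKM in WT. In counts rather than per length, the 10 genes together held 1363 to 1514 CPM in H1047R, 219 to 227 CPM in E545K and 315 to 322 CPM in WT, and C3 alone made up 49.6 to 55.7% of this in H1047R, 48.0 to 48.6% in E545K and 72.3 to 73.4% in WT.

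The 10 genes differed in how far H1047R libraries spread. The coefficient of variation over the 3 H1047R libraries was 19.5% for SAA2, 15.7% for PI3 and 13.0% for SAA1, against 1.39% for C3. H1047R library 1 was the highest of its group for 8 of the 10 genes, all but C3 and CFB, where it was the lowest. Its log2 ratio to the mean of the other two ran from -0.12 for CFB to 0.44 for SAA2, which is small beside the H1047R fold changes of the 8 genes at least 2-fold higher, but not beside those of RNASE7 and IL32. Over 16340 genes with at least 1 CPM in H1047R this ratio had a Spearman correlation with exon length of -0.190 (across genes, which are not independent replicates and share these libraries), while the same ratio for library 1 of E545K had 0.118 and of WT -0.0385. This trend was looked at after the values had been seen, and its part in the spread was not tested.

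For each gene the 2 most like it were sought among 10142 genes with a symbol and at least 10 CPM in 1 group, by Pearson's r of log2 CPM over the 9 libraries. Such an r can be high for any gene whose groups are spaced alike, and it takes no account of the size of the change. SERPINA3 (r = 0.998), itself an acute-phase gene, was among the 2 most like SAA2, and STAT3 (r = 0.999) was among the 2 most like SLPI. The keratin gene KRT15 was most like C3 (r = 0.999), with 3926 ± 128 CPM in H1047R, 1449 ± 12 CPM in E545K and 2095 ± 23.2 CPM in WT. KRT13 was most like PI3 (r = 0.998), with 43.2 ± 5.13 CPM in H1047R, 6.92 ± 0.188 CPM in E545K and 8.70 ± 0.305 CPM in WT. PADI2, a protein arginine deiminase, was among the 2 most like SAA1 (r = 0.998), with 13.3 ± 3.34 CPM in H1047R, 0.677 ± 0.0737 CPM in E545K and 0.769 ± 0.101 CPM in WT. CPA4, a carboxypeptidase, was most like PLA2G2A (r = 0.999), with 58.0 ± 4.55 CPM in H1047R, 9.51 ± 0.260 CPM in E545K and 17.8 ± 1.04 CPM in WT. RNASE7 had the loosest match, OPA3 (r = 0.977).

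The related gene lists that follow are not members of the 10, and each gene in them was tested by edgeR with adjustment over all 26412 genes. With that test 53.2% of all genes were called in H1047R against E545K (25.9% higher, 27.3% lower), 55.5% in H1047R against WT (27.4% higher, 28.1% lower) and 36.6% in E545K against WT (17.7% higher, 18.9% lower). These shares include many genes of low level. With a stricter low-count filter, of at least 1 CPM in at least 3 libraries, 11933 of 16830 genes were called in H1047R against E545K. In H1047R against WT 12202 were called, and in E545K against WT 9532. Of 27 other acute-phase genes, 15 were tested, and the rest, among them CRP, had too few counts. Relative to E545K cells, 6 rose and 2 fell in H1047R cells (53.3% called), in H1047R against WT 6 rose and 3 fell, and in E545K against WT 3 rose and 4 fell. SERPINA3, alpha-1-antichymotrypsin, had 1287, 1299 and 1217 CPM in H1047R cells, 330.4, 332 and 333 CPM in E545K cells and 290.3, 303 and 284 CPM in WT cells. It rose 3.82-fold in H1047R over E545K (adjusted p = 5.83e-14) and 4.34-fold in H1047R over WT (adjusted p = 1.15e-14). CHI3L2, a chitinase-like secreted protein, had 7.49 ± 0.798 CPM in H1047R cells, 0.722 ± 0.122 CPM in E545K cells and 1.0 ± 0.0856 CPM in WT cells. It rose in both H1047R comparisons and fell in E545K against WT (log2 fold change -0.50 ± 0.15, adjusted p = 0.0193). LRG1, a leucine-rich glycoprotein of serum, had 12.3 ± 0.739 CPM in H1047R cells, 6.05 ± 0.412 CPM in E545K cells and 4.57 ± 0.500 CPM in WT cells and rose in E545K against WT too (adjusted p = 0.00222).

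Not all acute-phase genes went this way. The ferritin genes, whose products store the iron that LCN2 withholds from bacteria, fell in every comparison. FTL had 158, 136 and 122 CPM in H1047R cells, 240.5, 249 and 246 CPM in E545K cells and 463, 455 and 444 CPM in WT cells, a log2 fold change of -1.71 ± 0.07 in H1047R over WT (adjusted p = 3.30e-11). FTH1 had 1987 ± 297 CPM in H1047R cells, 2483 ± 39.2 CPM in E545K cells and 3942 ± 14.7 CPM in WT cells (adjusted p = 2.79e-08 for H1047R over WT). Ferritin genes have many near-identical processed copies in the genome, so their counts are uncertain. SERPINA1, alpha-1-antitrypsin, had 3.95, 2.35 and 2.78 CPM in H1047R cells, 2.19, 2.11 and 1.73 CPM in E545K cells and 5.11, 6.32 and 5.77 CPM in WT cells. It was highest in WT, and it fell in E545K against WT (log2 fold change -1.50 ± 0.17, adjusted p = 6.10e-06) and in H1047R against WT (adjusted p = 1.59e-04).

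Of 36 other antimicrobial genes, 14 were tested. Against E545K cells, 8 rose and 3 fell in H1047R cells (78.6% called, beside 53.2% of all genes), in H1047R against WT 7 rose and 3 fell, and in E545K against WT 1 rose and 3 fell. CXCL14, a chemokine of epithelia with antibacterial activity, had 82.8, 94.6 and 98.7 CPM in H1047R cells, 6.11, 5.47 and 5.65 CPM in E545K cells and 15.1, 15.4 and 16.1 CPM in WT cells. Its order of groups was that of C3, and it rose 16-fold in H1047R over E545K (adjusted p = 1.31e-14) and fell in E545K against WT (log2 fold change -1.43 ± 0.07, adjusted p = 7.79e-10). PGLYRP3 and PGLYRP4, peptidoglycan recognition proteins of skin, had means of 1.5 ± 0.170 and 1.25 ± 0.183 CPM in H1047R. PGLYRP3 averaged 0.173 ± 0.0554 CPM in E545K and 0.164 ± 0.0625 CPM in WT, and its adjusted p was 2.26e-07 for H1047R over E545K. PGLYRP4 averaged 0.228 ± 0.0368 CPM in E545K and 0.135 ± 0.0617 CPM in WT, and its adjusted p was 2.78e-06 for H1047R over E545K. CCL20, the chemokine ligand of CCR6, instead peaked in E545K, with 3.66, 4.02 and 3.91 CPM in H1047R cells, 5.07, 6.0 and 5.34 CPM in E545K cells and 2.18, 2.19 and 2.24 CPM in WT cells (adjusted p = 4.53e-08 for E545K over WT). ADM, adrenomedullin, had 29.8, 35.7 and 31.8 CPM in H1047R cells, 8.54, 9.53 and 9.31 CPM in E545K cells and 32.3, 32 and 33.8 CPM in WT cells, so it fell in E545K against WT (adjusted p = 3.82e-11), and in H1047R over WT it had an adjusted p of 0.886.

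Of 52 other complement genes, 33 were tested, and the calls were divided. In H1047R against E545K 8 rose and 5 fell (39.4% called), in H1047R against WT 10 rose and 10 fell, and in E545K against WT 2 rose and 8 fell. CFI, the serum protease that inactivates C3b, had 18, 15.7 and 13.6 CPM in H1047R cells, 6.69, 6.8 and 6.95 CPM in E545K cells and 1.49, 1.22 and 1.36 CPM in WT cells. It rose in both mutants, by a log2 fold change of 3.53 ± 0.11 in H1047R over WT (adjusted p = 1.79e-12) and 2.32 ± 0.11 in E545K over WT (adjusted p = 7.90e-10). C1S, a protease of the classical pathway, had 7.45 ± 0.0262 CPM in H1047R cells, 3.45 ± 0.293 CPM in E545K cells and 5.97 ± 0.390 CPM in WT cells and rose in H1047R over E545K (adjusted p = 2.25e-08). Its partner C1R instead had 9.27 ± 0.552 CPM in H1047R cells, 9.09 ± 0.480 CPM in E545K cells and 19.1 ± 0.783 CPM in WT cells and fell in H1047R against WT (adjusted p = 1.81e-09). C5, cleaved by the convertase that C3b helps to form, had 1.7 ± 0.158 CPM in H1047R cells, 4.28 ± 0.303 CPM in E545K cells and 2.96 ± 0.161 CPM in WT cells and fell in H1047R over E545K (adjusted p = 5.66e-08). CLU, clusterin, which blocks the terminal complex, had 50.9 ± 5.92 CPM in H1047R cells, 37.8 ± 1.27 CPM in E545K cells and 82 ± 0.670 CPM in WT cells and fell in E545K against WT (adjusted p = 4.67e-09). CD109, a surface protein of the C3 family, had 876 ± 42.6 CPM in H1047R cells, 576 ± 6.81 CPM in E545K cells and 548 ± 7.55 CPM in WT cells and rose in H1047R over WT (adjusted p = 2.08e-09). ITGAM, the alpha chain of complement receptor CR3, had 1.5 ± 0.180 CPM in H1047R cells, 0.466 ± 0.0510 CPM in E545K cells and 0.362 ± 0.0836 CPM in WT cells, and its beta chain ITGB2 had 0.780 ± 0.0607 CPM in H1047R cells, 0.849 ± 0.0951 CPM in E545K cells and 2.25 ± 0.0586 CPM in WT cells. In H1047R over WT ITGAM rose (adjusted p = 6.95e-07) while ITGB2 fell (adjusted p = 3.55e-07).

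**Figure D3:**
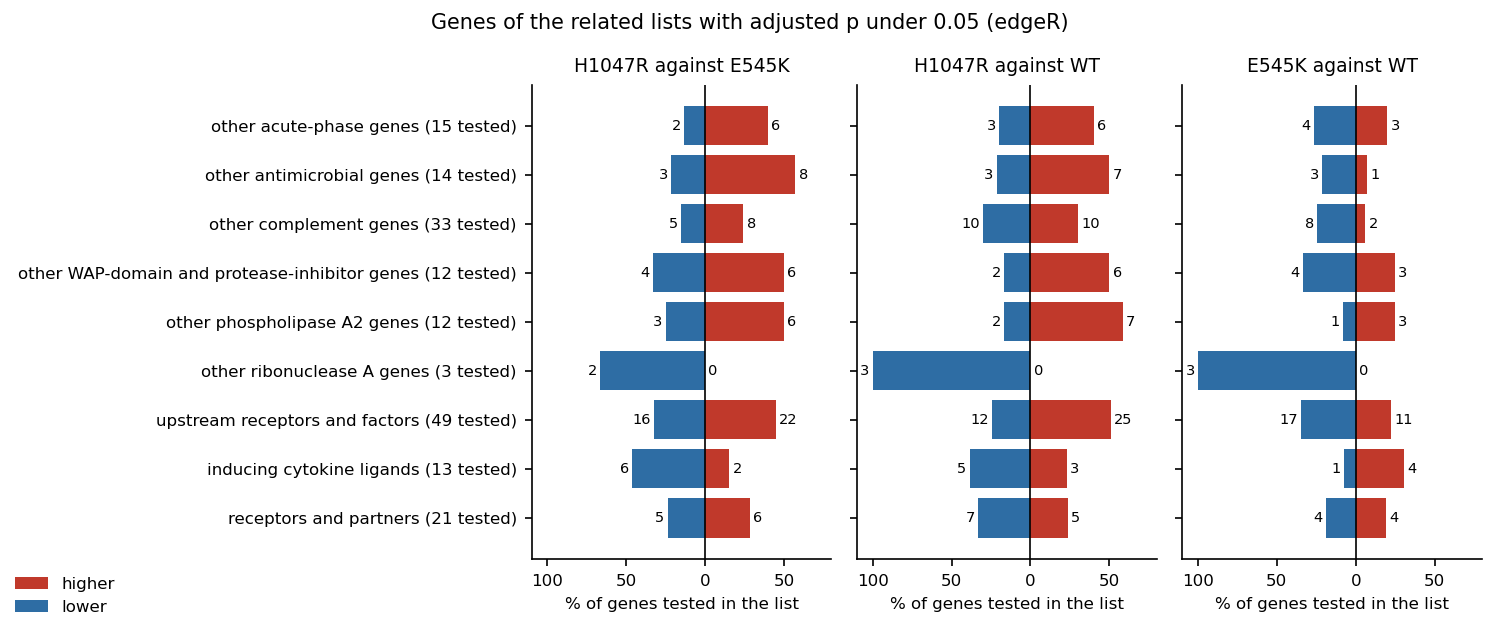
Share of the tested genes of each related list with an edgeR adjusted p under 0.05, higher (right, red) or lower (left, blue), in H1047R against E545K, H1047R against WT and E545K against WT; numbers are genes. The antimicrobial list has 8 genes higher and 3 lower in H1047R against E545K, and the ribonuclease list has only lower calls.

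The WAP-domain and protease-inhibitor list held 30 other genes, mostly relatives of PI3 and SLPI and other protease inhibitors. It also held ELANE, PRTN3, CTSG and AZU1, which belong to the neutrophil serine protease family and are not inhibitors. Of the 30 genes, 12 were tested. Relative to E545K cells, 6 rose and 4 fell in H1047R cells (83.3% called), in H1047R against WT 6 rose and 2 fell, and in E545K against WT 3 rose and 4 fell. ANOS1, anosmin-1, which carries a WAP domain like SLPI, had 14.6, 18 and 16 CPM in H1047R cells, 0.0561, 0.0833 and 0.00997 CPM in E545K cells and 5.48, 5.53 and 5.97 CPM in WT cells. In E545K it was near the counting floor, since 3 counts are 0.0223 to 0.0314 CPM of the unscaled library totals there. Its level in 1 library lay below that. The adjusted p was 5.82e-12 for E545K over WT and 7.46e-09 for H1047R over WT. SERPINB2, plasminogen activator inhibitor 2, had 6.41, 4.47 and 3.6 CPM in H1047R cells, 0.659, 0.685 and 0.339 CPM in E545K cells and 0.513, 0.740 and 0.668 CPM in WT cells and rose in H1047R over E545K (adjusted p = 8.29e-08). CSTA, the keratinocyte cystatin A, had 219 ± 40.1 CPM in H1047R cells, 106 ± 2.39 CPM in E545K cells and 74.3 ± 2.53 CPM in WT cells and rose in both mutants over WT (adjusted p = 2.45e-09 for H1047R and 5.39e-04 for E545K). CST6, cystatin E/M, had 22.2 ± 3.32 CPM in H1047R cells, 22.6 ± 0.597 CPM in E545K cells and 7.05 ± 0.398 CPM in WT cells, so it was higher in both mutants, and in H1047R over E545K its adjusted p was 0.815. SPINK5, the inhibitor of epidermal kallikreins, had 1.26 ± 0.190 CPM in H1047R cells, 2.27 ± 0.0452 CPM in E545K cells and 0.305 ± 0.0915 CPM in WT cells and was highest in E545K (adjusted p = 4.00e-08 over WT).

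Of 20 other phospholipase A2 genes and the receptor, 12 were tested. Against E545K cells, 6 rose and 3 fell in H1047R cells (75.0% called), in H1047R against WT 7 rose and 2 fell, and in E545K against WT 3 rose and 1 fell. PLA2R1, the receptor that binds secreted phospholipases A2, had 1.87, 1.84 and 1.84 CPM in H1047R cells, 1.25, 1.25 and 1.13 CPM in E545K cells and 0.238, 0.211 and 0.308 CPM in WT cells. It rose in both mutants over WT (adjusted p = 2.71e-09 for H1047R and 1.49e-07 for E545K). PLA2G4F, a cytosolic form, had 11.6 ± 1.26 CPM in H1047R cells, 4.46 ± 0.187 CPM in E545K cells and 2.65 ± 0.134 CPM in WT cells and PLA2G4A, the form that releases arachidonic acid, 12.4 ± 1.1 CPM in H1047R cells, 21.3 ± 0.659 CPM in E545K cells and 8.86 ± 0.457 CPM in WT cells. PLA2G4F was highest in H1047R and PLA2G4A in E545K (adjusted p = 4.42e-11 for H1047R over WT and 2.60e-09 for E545K over WT).

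The ribonuclease list held 13 genes, namely relatives of RNASE7 and RNH1, the gene of a ribonuclease inhibitor that is not a relative. Of these, 3 were tested: RNASE4, ANG and RNH1. In H1047R against E545K 0 rose and 2 fell, and in each mutant against WT 0 rose and 3 fell. RNASE4 had 5.13 ± 0.140 CPM in H1047R cells, 6.98 ± 0.693 CPM in E545K cells and 14.8 ± 1.09 CPM in WT cells and ANG, angiogenin, 2.82 ± 0.274 CPM in H1047R cells, 3.66 ± 0.147 CPM in E545K cells and 8.4 ± 0.423 CPM in WT cells. Both fell in H1047R over WT (adjusted p = 2.88e-10 for RNASE4 and 7.74e-10 for ANG), whereas RNASE7 was higher there. RNASE4 and ANG share exons, so their counts are not independent. RNASE8, the neighbour of RNASE7, did not pass the low-count filter.

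Interleukin-1 genes, whose products induce many of these genes, were lowest in H1047R. Of 29 ligand genes 13 were tested. Relative to E545K cells, 2 rose and 6 fell in H1047R cells (61.5% called), in H1047R against WT 3 rose and 5 fell, and in E545K against WT 4 rose and 1 fell. IL1B, interleukin-1 beta, had 1.07, 1.23 and 1.12 CPM in H1047R cells, 9.97, 11.9 and 10.3 CPM in E545K cells and 27.9, 29.6 and 30.5 CPM in WT cells. It was lowest in H1047R, 25.6-fold lower than in WT (adjusted p = 5.54e-15) and 9.37-fold lower than in E545K (adjusted p = 3.03e-13). IL1A, interleukin-1 alpha, had 11.5, 14.3 and 12.1 CPM in H1047R cells, 52.9, 51.1 and 49.5 CPM in E545K cells and 26.4, 26 and 27.4 CPM in WT cells. It fell in H1047R against WT (adjusted p = 4.01e-09) and rose in E545K against WT (adjusted p = 4.26e-08). TSLP, an epithelial cytokine, had 2.81 ± 0.141 CPM in H1047R cells, 1.63 ± 0.268 CPM in E545K cells and 0.741 ± 0.128 CPM in WT cells and LIF, of the interleukin-6 family, 2.26 ± 0.386 CPM in H1047R cells, 1.88 ± 0.103 CPM in E545K cells and 0.887 ± 0.223 CPM in WT cells. Both rose in each mutant over WT (for H1047R adjusted p = 6.50e-08 for TSLP and 1.64e-05 for LIF). IL11, of the same family, had 0.913 ± 0.143 CPM in H1047R cells, 1.86 ± 0.323 CPM in E545K cells and 0.932 ± 0.121 CPM in WT cells and rose in E545K over WT (adjusted p = 5.63e-04). CTF1, cardiotrophin 1, had 0, 0.0347 and 0.00768 CPM in H1047R cells, 0.729, 0.962 and 0.658 CPM in E545K cells and 1.49, 1.33 and 0.933 CPM in WT cells and fell in H1047R over WT (adjusted p = 1.17e-07). IL6 did not pass the low-count filter and had 0 counts in all 3 H1047R libraries, which allows up to 0.00495 to 0.00796 CPM of unscaled totals.

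Of 53 receptors and factors upstream, 49 were tested. Against E545K cells, 22 rose and 16 fell in H1047R cells (77.6% called), in H1047R against WT 25 rose and 12 fell, and in E545K against WT 11 rose and 17 fell. IL1R1, the signalling receptor of interleukin-1, had 66.5, 76.8 and 76.8 CPM in H1047R cells, 17.6, 17.6 and 18 CPM in E545K cells and 18.9, 20.5 and 19 CPM in WT cells. It rose 4.13-fold in H1047R over E545K (adjusted p = 1.34e-12) and 3.77-fold over WT (adjusted p = 1.24e-12). ELF3, an epithelial ETS factor that is itself induced by interleukin-1, had 85, 76.9 and 71.6 CPM in H1047R cells, 28.8, 28.7 and 28.1 CPM in E545K cells and 33.9, 34.9 and 33.7 CPM in WT cells (adjusted p = 2.41e-11 for H1047R over E545K). IL17RC, a chain of the interleukin-17 receptor, had 48.3, 60.6 and 60.3 CPM in H1047R cells, 22.9, 23.9 and 22.6 CPM in E545K cells and 28.6, 27.8 and 29.8 CPM in WT cells (adjusted p = 1.66e-09 for H1047R over E545K). JAK2, the kinase of several cytokine receptors, had 33.7 ± 1.9 CPM in H1047R cells, 18.6 ± 0.362 CPM in E545K cells and 13.5 ± 0.479 CPM in WT cells and rose in H1047R over WT (adjusted p = 2.37e-11).

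Others of the same list fell. IL22RA1, the receptor chain of interleukin-22, had 3.91, 3.88 and 4.02 CPM in H1047R cells, 6.12, 6.07 and 6.58 CPM in E545K cells and 13, 13.1 and 13.2 CPM in WT cells, and it fell in H1047R against WT (log2 fold change -1.74 ± 0.06, adjusted p = 5.77e-12). LIFR, the receptor of LIF, had 18.5 ± 0.438 CPM in H1047R cells, 29.3 ± 1.84 CPM in E545K cells and 38.9 ± 1.12 CPM in WT cells and fell in H1047R against WT too (adjusted p = 1.33e-10). SOCS3, a feedback inhibitor induced by STAT3, had 3.09 ± 0.423 CPM in H1047R cells, 4.56 ± 0.365 CPM in E545K cells and 2.52 ± 0.0445 CPM in WT cells and NFKBIZ, the gene of IkappaB-zeta, 44.7 ± 6.19 CPM in H1047R cells, 53.9 ± 0.749 CPM in E545K cells and 37.3 ± 0.688 CPM in WT cells. Both were highest in E545K and rose there over WT (adjusted p = 3.36e-05 for SOCS3 and 5.08e-05 for NFKBIZ).

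**Figure D4:**
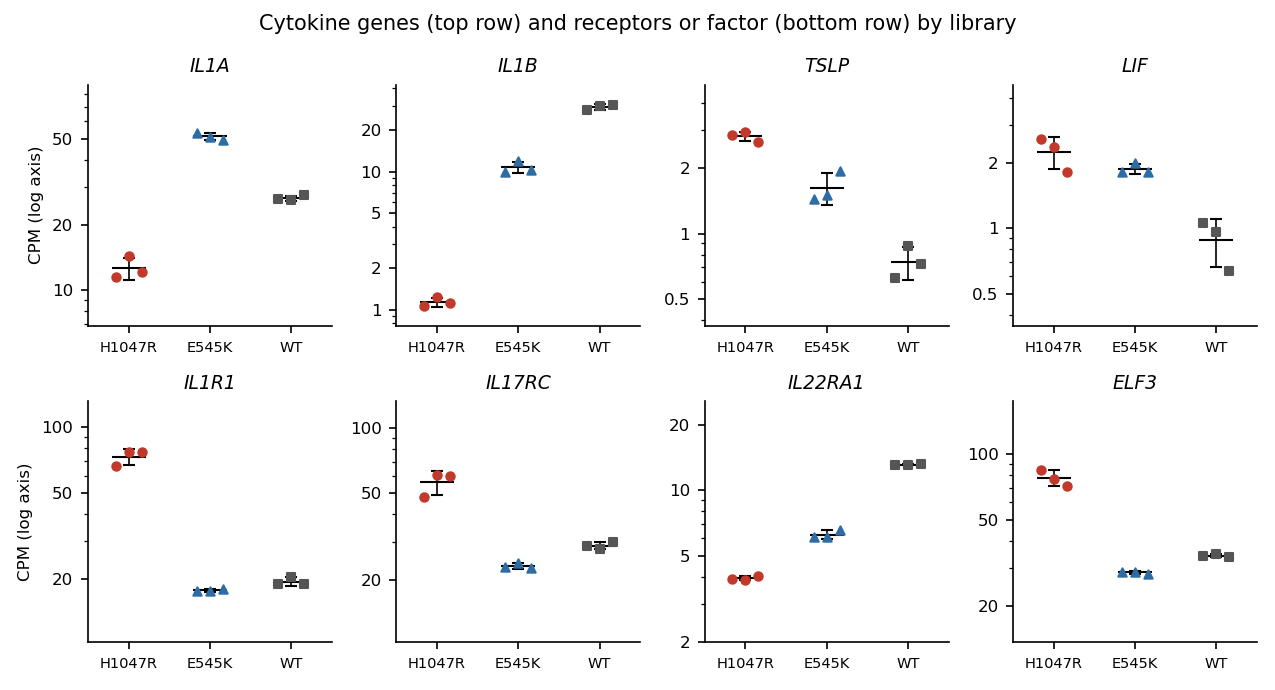
Levels in every library, in CPM on a log axis scaled for each gene, of 4 cytokine genes (top row) and of 3 receptor genes and ELF3 (bottom row), for H1047R, E545K and WT cells from left to right; bars are the mean and SD of 3 libraries. IL1A and IL1B are lowest in H1047R, where IL1R1, IL17RC and ELF3 are highest.

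Liver and blood cells are the other usual sources of these proteins. None of 10 hepatocyte markers reached 1 CPM in any library, and their summed level was 1.09 to 1.55 CPM in H1047R, 0.638 to 0.738 CPM in E545K and 0.996 to 1.15 CPM in WT. Of 15 leukocyte markers 4 reached 1 CPM in H1047R, 3 in E545K and 3 in WT, and their summed level was 85.5 to 95.5 CPM in H1047R, 57.8 to 59.5 CPM in E545K and 50.1 to 51.3 CPM in WT. Most of it was CSF1R, with 79.4 ± 5.29 CPM in H1047R cells, 45.9 ± 0.806 CPM in E545K cells and 34 ± 0.678 CPM in WT cells. PTPRC, which defines leukocytes, stayed under 0.1 CPM in every library, and ELANE, which defines neutrophil precursors, had 0 counts in the H1047R libraries. PTPRC and ELANE were picked after their values were seen. Of 5 leukocyte markers tested by edgeR, 2 rose and 2 fell in H1047R against WT (80.0% called, beside 55.5% of all genes). In H1047R against E545K 2 rose and 3 fell (100% called, beside 53.2%). The part of the leukocyte list in the results was not tested. Of 10 fibroblast markers 3 reached 1 CPM, with a summed level of 103 to 113 CPM in H1047R, 115 to 117 CPM in E545K and 119 to 126 CPM in WT.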

How the data were processed

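RNA was depleted of ribosomal RNA and sequenced as paired reads of 150 bases, per the labels' protocols. The deposited values are counts per gene, made with featureCounts 2.0.0 from the GENCODE 32 annotation of hg38 over exons, per the file headers. A read over more than 1 gene went to all of them (option -O), with no strand option, no pairing option and no option for multi-mapping reads, so mates were counted singly, antisense and overlapping genes share reads, and reads marked as multi-mapping, as between SAA1 and SAA2, are left out by default. The submitters' processing notes name SAMtools 1.5, STAR, FastQC, cutadapt and Trim Galore 0.4.0, with no settings.

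All 9 count columns were used. Symbols came from GENCODE 44, which matched 60295 of 60609 identifiers. Counts were fitted with edgeR 4.0.16 (R 4.3.3): filterByExpr, TMM scaling, glmQLFit with genotype as the factor on the 9 libraries together, glmQLFTest, and Benjamini-Hochberg adjustment over 26412 genes, with 0.05 as threshold. SE is the size of the log2 fold change divided by the square root of F. The genotypes shared a dispersion per gene, although the variation was 0.212 in H1047R, 0.0289 in E545K and 0.0328 in WT. SEs and adjusted p can therefore be too small in H1047R comparisons and too large in E545K against WT. The same scripts were run on simulated data in which every library had the pooled variation, 0.118, so that run cannot show the effect of unequal spread. CPM use TMM-scaled totals, except for the limits that stand for 3 counts, which use unscaled totals. Counting error limits: a count of 0 allows 3 counts, and reads carry no molecular identifiers.

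The 10 genes, the related lists and the tests were chosen with earlier results of these data known. Beside the 10, genes are named by a rule: in each list and comparison up to 3 that rose and 2 that fell, largest by fold, where the higher group averaged 1 CPM or more and libraries did not overlap; neighbours of the 10 genes and the 2 genes most like each; and PIK3CA. CRP, RNH1, IL6, CSF1R, PTPRC, ELANE and MMP9 were added after their values were seen. Not every gene this rule gives is reported here. Genes without a symbol were left out of the likeness search. Alternatives were RLE, upper-quartile and total-count scaling, no filter and a stricter one, protein-coding genes only, DESeq2 1.42.0, only the 2 groups compared, a replicate block, leaving out each library, and SAA1 and SAA2 summed. Motif searches covered both strands.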

Additional observations from a re-analysis of the deposited data

Results flagged for a closer look

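Of the 10 genes, 5 stood above WT in every H1047R library and below WT in every E545K library: SAA1, LCN2, C3, PI3 and PLA2G2A. Of all genes tested, 4.28% had that pattern, a share looked at after the values had been seen. Their log2 fold change in H1047R over E545K, which is the difference of the 2 effects relative to WT, was 3.28 for SAA1, 3.37 for LCN2, 2.82 for C3, 5.41 for PI3 and 5.12 for PLA2G2A. This difference was not tested for them, because these contrasts chose them.

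Of the 170 related genes tested, 14 (8.24%) stood above WT in every H1047R library and below WT in every E545K library, beside 4.28% of all genes tested, and 3 (1.76%) stood the other way round, beside 4.82%. These shares were looked at after the values had been seen and are a description. The naming rule gives 10 of these genes, and for them the edgeR values of H1047R over E545K are listed as a description. They were picked because H1047R and E545K libraries lay on opposite sides of WT. A difference between H1047R and E545K was thus set by the choice, and these adjusted p are no separate test of it. Those above WT in H1047R and below it in E545K were ANOS1 (log2 fold change 8.29, adjusted p = 1.50e-13), C1S (1.11, adjusted p = 2.25e-08), CHI3L2 (3.39, adjusted p = 4.39e-11), CXCL14 (4.0, adjusted p = 1.31e-14), ELF3 (1.45, adjusted p = 2.41e-11), IL17RC (1.28, adjusted p = 1.66e-09) and IL1R1 (2.05, adjusted p = 1.34e-12). IL1R1 was below WT in all E545K libraries, but its adjusted p there was 0.0983. Those below WT in H1047R and above it in E545K were C5 (-1.34, adjusted p = 5.66e-08), IL1A (-2.02, adjusted p = 7.42e-12) and PROCR (-1.03, adjusted p = 5.16e-06). PROCR, the endothelial protein C receptor, had an adjusted p of 0.0520 in E545K against WT. The count table and the H1047R genotype cannot be told apart in any of these.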

How the results depend on the processing

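Over the 18 alternative settings that kept SAA1 and SAA2 apart, the counts of the 10 genes at least 2-fold apart stayed at 8 in H1047R against E545K and 8 in H1047R against WT. In E545K against WT the count was 3 except with library totals alone, where it was 4 because SLPI reached a log2 fold change of 1.04. None of the fold changes of the 10 genes changed direction. With the replicate block 8 and 8 of the 10 genes were at least 2-fold apart in the H1047R comparisons and 3 in E545K against WT. Replicate numbers did not pair the samples (correlation of same-numbered deviations -0.132 to 0.104), and the replicate block called 13731 genes in H1047R against E545K, 14394 in H1047R against WT and 9441 in E545K against WT, beside 14040, 14651 and 9663 without it. Of the related lists, the stricter low-count filter left 6 antimicrobial genes called in H1047R against E545K and 5 in H1047R against WT (main values 11 and 10), and 8 and 12 complement genes (13 and 20), since fewer genes were tested. Fitting only the 2 groups compared called 8 ligand genes in E545K against WT instead of 5; the cause was not tested. Leaving out 1 library gave 7 to 10 ligand genes in H1047R against E545K, 23 to 31 upstream genes in E545K against WT and 9 to 12 complement genes in H1047R against E545K. Among the genes the naming rule gives, PLA2G4B, PLA2G12A and TGM2 lost a call under some settings. Over the settings the log2 fold change of TGM2 was -0.289 to -0.166 in E545K against WT. In H1047R against WT it was -1.49 to -1.37.

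Scaling by library totals alone moved the median log2 fold change of all genes to -0.12 in H1047R against E545K and 0.10 in E545K against WT. It moved the share of calls that were higher to 33.2% (48.7% with TMM) in H1047R against E545K and to 66.1% (48.3% with TMM) in E545K against WT. Under it the log2 fold change in H1047R over E545K was 0.14 for RNASE7 and -0.37 for IL32, and in E545K over WT it was -0.05 for SAA1, so these small differences depend on the scaling. H1047R libraries were deeper and more variable than the others, and fitting only E545K and WT called 12585 genes, against 9663 in the fit of all 9. Counts of 24 to 48 limit LCN2 and PLA2G2A in E545K.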

Other observations

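Receptors, activating proteases and other partners of the 10 proteins were looked at as well. Of 25 genes 21 were tested. In H1047R against E545K 6 rose and 5 fell (52.4% called, beside 53.2% of all genes), in H1047R against WT 5 rose and 7 fell, and in E545K against WT 4 rose and 4 fell. KLK7 and KLK5, the epidermal kallikreins that process antimicrobial peptides, rose in both mutants. KLK7 had 242, 208 and 192 CPM in H1047R cells, 8.62, 8.79 and 9.53 CPM in E545K cells and 0.966, 0.867 and 0.658 CPM in WT cells (edgeR adjusted p = 7.66e-16 for H1047R over WT and 3.23e-11 for E545K over WT). KLK5 had 23.8, 22.5 and 18.5 CPM in H1047R cells, 4.54, 5.2 and 4.51 CPM in E545K cells and 0.216, 0.211 and 0.191 CPM in WT cells (adjusted p = 2.70e-14 for H1047R over WT and 1.73e-11 for E545K over WT). CD36, a scavenger receptor that binds serum amyloid A, had 22.4, 23.7 and 25.3 CPM in H1047R cells, 2.99, 3.58 and 3.3 CPM in E545K cells and 1.84, 1.43 and 1.57 CPM in WT cells and rose in both mutants (adjusted p = 1.57e-13 for H1047R over WT and 2.10e-06 for E545K over WT).

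TGM2, tissue transglutaminase, had 4.63, 5.03 and 4.91 CPM in H1047R cells, 11.2, 11.5 and 10.5 CPM in E545K cells and 13.6, 13.1 and 12.9 CPM in WT cells and fell in H1047R against WT (adjusted p = 3.97e-11). ANXA2, which binds SLPI at cell membranes, had 1623 ± 153 CPM in H1047R cells, 1947 ± 12 CPM in E545K cells and 2327 ± 33.3 CPM in WT cells and fell in each mutant against WT (adjusted p = 9.18e-07 for H1047R and 0.00150 for E545K). MMP9, with which LCN2 forms a complex, stayed under 0.2 CPM in every library.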
